A study of Mus musculus with 4 samples.

Results

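The 8 genes described here belong to the growth hormone and IGF1 axis of the liver: Ghr, Stat5b, Igf1, Igfals, Socs2, Cish, Bcl6 and Elovl3. They were chosen by symbol, from probe sets annotated to that symbol alone, and all 8 were measured among the 18820 genes of the array that could be named this way. Socs2 was read by a pair of probe sets, which were averaged, and each of the other 7 genes by 1. All 8 had a mean level over the arrays at or above a floor of 5.55 on the log2 scale, the median of all genes' mean levels, as did 9410 genes in all.

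Livers came from male C57Bl/6J mice, 16 to 17 weeks old, fed a semi-synthetic diet with palm oil for 6 weeks and fitted with a permanent catheter in the cecum. After a short morning fast the conscious mice received 1 of 4 infusions at 0.2 ml/h for 6 h: phosphate-buffered saline as the control, or a 0.3 M solution of carbon-13 labelled sodium acetate, sodium propionate or sodium butyrate. The acids were given at a matched rate of 2.4 mmol/h/kg. RNA of 22 mice was pooled by group before hybridization, from 6 mice each for control, acetate and propionate and from 4 for butyrate, and each pool was read on 1 array. No spread between animals can therefore be estimated, and none of the differences below has a replicate check or a test.

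Growth hormone from the pituitary binds the receptor GHR on hepatocytes, and the kinase JAK2 then activates the transcription factor STAT5B. STAT5B drives Igf1, the gene of the circulating growth factor, and Igfals, the gene of the acid-labile subunit that keeps IGF1 in the blood. It also drives Socs2 and Cish, whose products dampen signalling through the receptor. In mice the release of growth hormone is more pulsatile in males than in females, and the difference sets a large part of the liver's sex-biased expression, to which the repressor BCL6 contributes and of which the fatty acid elongase gene Elovl3 is a male-biased example.

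The arrays were alike, with medians between 5.11 and 5.12 and Pearson's r of 0.990 to 0.996 between pairs over genes at or above the floor (genes are not independent replicates). All 11 measured hepatocyte markers were at or above the floor, and none differed from control by 1.2-fold with any acid. In RNA of whole liver, fewer cells of a type and less RNA per cell cannot be told apart.

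The receptor, the transducer and the secreted products of the axis differed little between the pools. Ghr, the receptor gene, had log2 expression values of 11.43 in the control pool, 11.44 with acetate, 11.36 with propionate and 11.43 with butyrate. Its highest and lowest pools, acetate and propionate, were 1.06-fold apart. Stat5b stood at 7.80, 7.88, 7.92 and 7.90 in the same order of pools, so that all 3 acids lay above control, by at most 1.08-fold with propionate.

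Igf1 stood at 11.68 in control, 11.64 with acetate, 11.61 with propionate and 11.67 with butyrate. Control was the highest pool and propionate the lowest, and the whole span was 1.05-fold, the narrowest of the 8 genes. The single Igf1 probe set is annotated to 4 RefSeq transcripts, so transcript variants were not separated. Igfals stood at 8.95, 8.87, 8.92 and 9.03. Here butyrate was the highest pool and acetate the lowest, 1.12-fold apart.

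**Figure D1:**
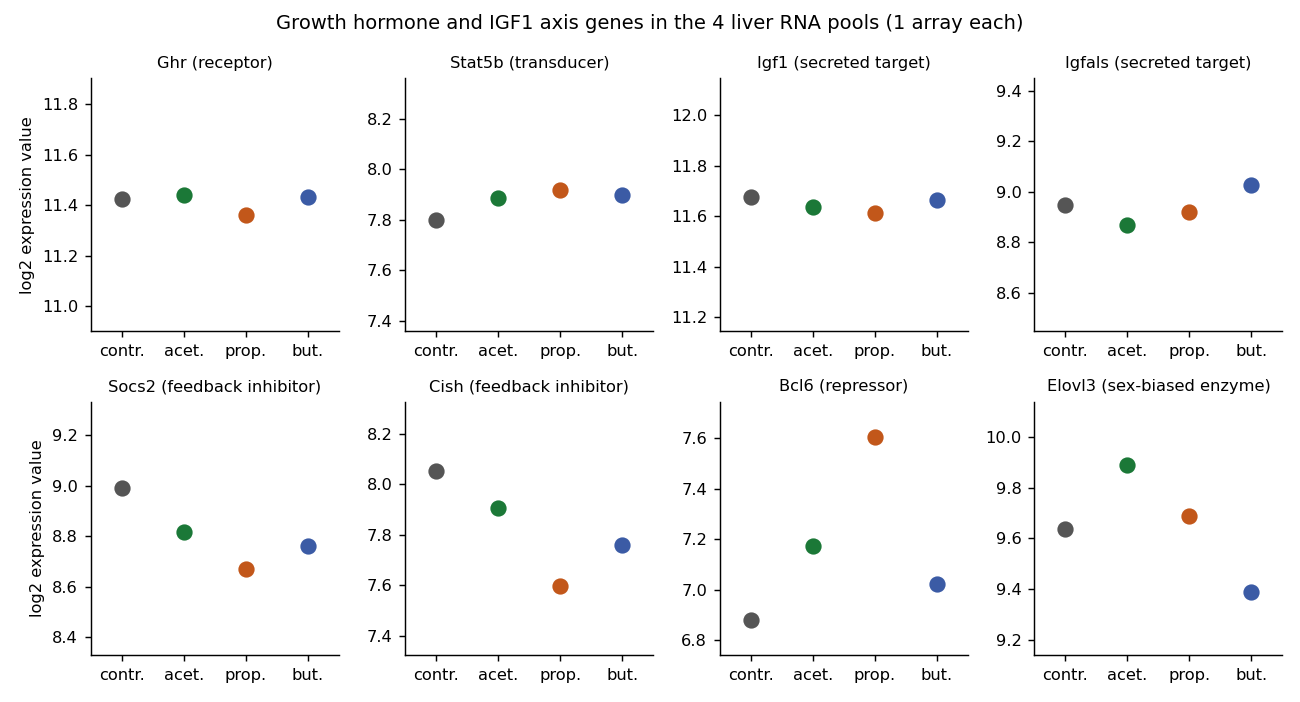
Log2 expression value (vertical axis, a span of 1 log2 unit in every panel) of each axis gene in the control, acetate, propionate and butyrate pools, 1 point per array. Ghr, Stat5b, Igf1 and Igfals stay nearly level, Socs2 and Cish are lowest with propionate, Bcl6 is highest with propionate (7.61), and Elovl3 runs from 9.39 with butyrate to 9.89 with acetate.

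The feedback inhibitors among the axis genes, Cish and Socs2, were lower than control in all 3 acid pools, most with propionate. Socs1 and Socs3, given with the other signalling genes below, were not lower with all 3 acids. Cish, a member of the SOCS family that binds activated cytokine receptors, stood at 8.05 in control, 7.91 with acetate, 7.60 with propionate and 7.76 with butyrate. The log2 ratios to control were -0.14, -0.45 and -0.29, or 1.37-fold lower with propionate. Of the 9410 genes, 98 had a propionate ratio as low as that of Cish or lower, 1.04% of them.

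Socs2, which targets the growth hormone receptor for degradation, stood at 8.99 in control and at 8.82, 8.67 and 8.76 with acetate, propionate and butyrate. Its ratios to control were -0.17, -0.32 and -0.23. Control was the highest and propionate the lowest of the pools for Socs2 as for Cish, with the same order between them. The brighter Socs2 probe set read 10.73, 10.58, 10.48 and 10.58 and the dimmer one 7.25, 7.05, 6.86 and 6.95. Each of them placed all 3 acids below control, with propionate ratios of -0.25 and -0.39. The 3 ratios to control share a single control array, so their common sign counts only once.

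Bcl6 was the one axis gene to differ from control by 1.5-fold. BCL6 is a zinc finger repressor, known from germinal centre B cells, that in male liver binds many of the sites STAT5 binds. Its log2 values were 6.88 in control, 7.18 with acetate, 7.61 with propionate and 7.02 with butyrate. Propionate was 1.65-fold above control, a log2 ratio of 0.73, and 35 of the 9410 genes (0.372%) had a ratio as high or higher. Acetate was 1.23-fold and butyrate 1.10-fold above control. Set against the average of control, acetate and butyrate, the propionate ratio was 0.58 and just short of 1.5-fold.

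In the propionate pool Bcl6 was thus at its highest while Cish and Socs2 were at their lowest. The order of the pools for Bcl6, from propionate through acetate and butyrate to control, is not the reverse of that of Cish and Socs2. In these, butyrate lies below acetate, by -0.15 for Cish but only -0.055 for Socs2. In the brighter Socs2 probe set that difference was -0.0036. With 4 arrays no correlation is given.

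Promoter windows from RefSeq (build GRCm38.p6), 250 bases before to 50 bases after an annotated transcription start, were listed for 6 of the 8 genes, 11 windows in all; Socs2 and Elovl3 had no entry. They were searched for TTCNNNGAA, the palindromic core that STAT5 and BCL6 both bind, and for CACGTG, the E-box of the clock factors, both of which read the same on either strand. The first was in 5 of the 11 windows, of Cish, Bcl6 and Igfals, and in 8.30% of all 32851 windows. The second was in 1, of Bcl6, and in 7.15% of all windows. No match was found in the windows of Igf1, Ghr and Stat5b.

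The stretches of Cish and Bcl6, the genes with the largest propionate ratios, are printed 5′ to 3′ with motif matches in capitals. That of Cish lies on the plus strand of chr9:107296579-107296688, from 80 bases before to 30 bases after the start, and holds a pair of TTCNNNGAA matches that begin at bases 1 and 12 of the transcript. Those of Bcl6 lie on the minus strand, the first at chr16:23988893-23988992 with 1 TTCNNNGAA match and the E-box, the second, at another annotated start, at chr16:23981344-23981463 with 3 TTCNNNGAA matches. Windows with at least 2 such matches made up 0.457% of all windows. A match describes the sequence and shows no binding in these livers, and no match says only that these letters are not in this window.
Cish: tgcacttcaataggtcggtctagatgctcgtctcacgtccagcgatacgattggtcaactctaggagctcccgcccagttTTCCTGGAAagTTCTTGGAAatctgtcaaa
Bcl6 first window: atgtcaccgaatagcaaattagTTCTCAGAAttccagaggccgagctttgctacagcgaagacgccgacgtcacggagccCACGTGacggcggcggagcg
Bcl6 second window: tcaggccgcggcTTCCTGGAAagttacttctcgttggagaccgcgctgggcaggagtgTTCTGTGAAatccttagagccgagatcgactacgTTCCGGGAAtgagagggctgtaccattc

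**Figure D2:**
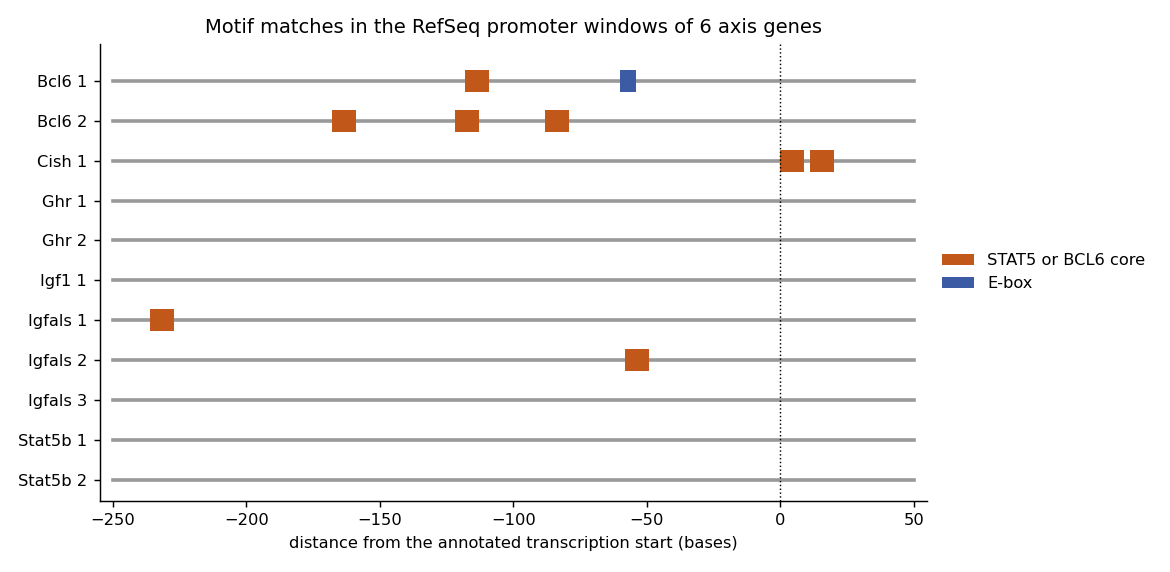
Positions of TTCNNNGAA (orange) and CACGTG (blue) in the 11 RefSeq promoter windows of 6 axis genes, by distance in bases from the annotated transcription start (dotted line). The Cish matches sit right after the start, and the second Bcl6 window holds 3 matches upstream of it.

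Elovl3 was highest with acetate and lowest with butyrate, with control and propionate between them. The gene encodes an elongase of saturated and monounsaturated fatty acids that is male-biased and rhythmic in mouse liver. It stood at 9.64 in control, 9.89 with acetate, 9.69 with propionate and 9.39 with butyrate. Acetate was 1.19-fold above control and butyrate 1.19-fold below it, log2 ratios of 0.25 and -0.25, and propionate was 1.04-fold above. The acetate and butyrate pools were 1.42-fold apart, with 118 of the 9410 genes (1.25%) as low or lower in butyrate against acetate.

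Counted together, 0 of the 8 genes differed from control by at least 1.5-fold with acetate, 1 with propionate and 0 with butyrate. Over the 9410 genes the shares past 1.5-fold were 1.14%, 1.11% and 1.12%, which for 8 genes is less than 1 gene in each comparison. At 1.2-fold (0.26 on the log2 scale) the counts were 1 with acetate (Bcl6), 3 with propionate (Bcl6 above, Cish and Socs2 below) and 1 with butyrate (Cish), against 9.91%, 10.2% and 8.6% of all genes. Elovl3 lay just under 1.2-fold with acetate and with butyrate. The median log2 ratios of the 8 genes were -0.012, -0.045 and -0.0017, beside -0.011, -0.034 and -0.0036 over all 9410.

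The acids differ in the length of their carbon chain, shortest in acetate and longest in butyrate, and were compared at the same concentration, rate and time in 3 pairs. No axis gene reached 1.5-fold between propionate and acetate, butyrate and acetate, or butyrate and propionate, where 0.553%, 1.9% and 0.956% of all genes did. Bcl6 came closest, with a log2 ratio of -0.584 in butyrate against propionate, beside a threshold of 0.585. That pair passed 1.5-fold with other ways of aligning the arrays, at -0.62 after cyclic loess or median centring.

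At 1.2-fold, Bcl6 (0.43) and Cish (-0.31) separated propionate from acetate, and 6.91% of all genes did so. Elovl3 alone separated butyrate from acetate (-0.50; 13.5% of all genes), and Bcl6 and Elovl3 (-0.30) separated butyrate from propionate (10.7%). Between any 2 acids, Ghr, Stat5b, Igf1 and Igfals differed by at most 1.12-fold. With 1 array each these differences have no interval, so values close together do not show that the acids act alike.

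**Figure D3:**
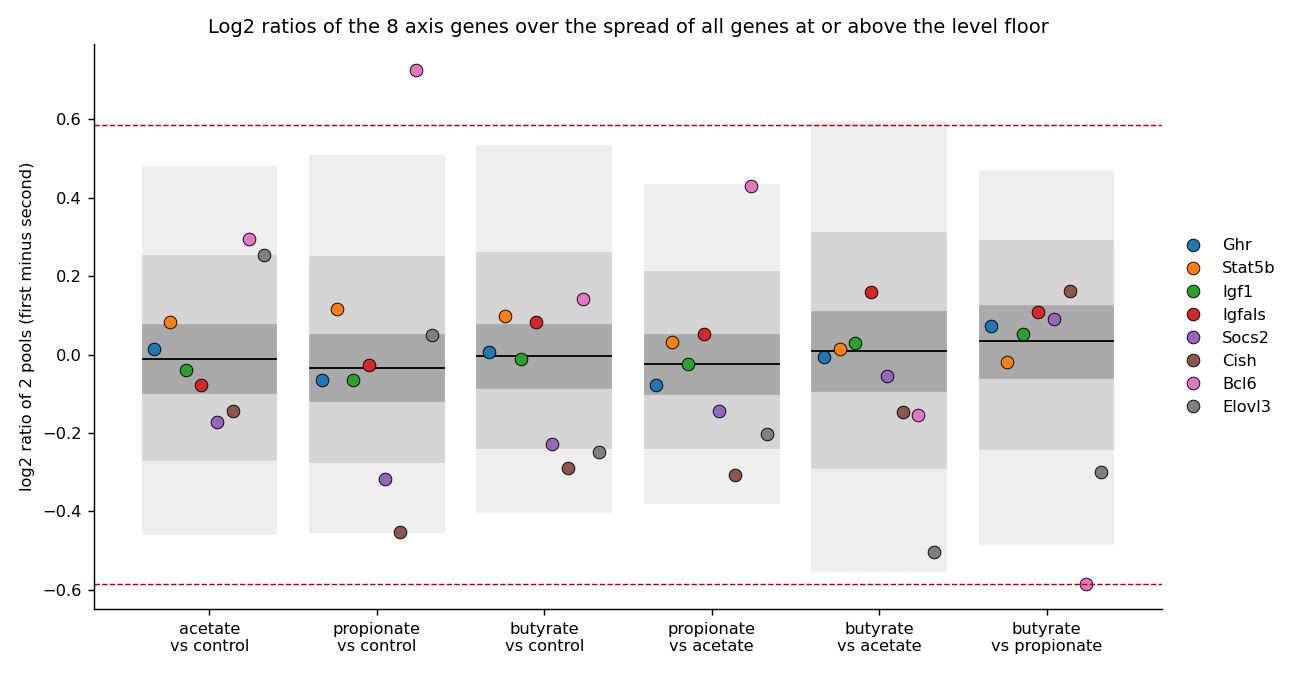
Log2 ratio of the first pool to the second (vertical axis) for the 8 axis genes in each of the 6 comparisons, over grey bands that hold the middle 50%, 90% and 98% of the 9410 genes at or above the floor; dashed lines mark 1.5-fold. Bcl6 in propionate against control (0.73) is the only point past a dashed line, and Bcl6 in butyrate against propionate lies on one.

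Other components of growth hormone signalling stayed close to control. None of 16 measured genes, among them Jak2 and the phosphatases, differed by 1.5-fold with any acid, and the list medians were -0.011, 0.019 and -0.023 with acetate, propionate and butyrate. Counts in this and the next lists include genes below the floor; over all 18820 genes, 1.19%, 1.26% and 1.34% were past 1.5-fold. At or above the floor the largest ratios were those of the receptor-binding adaptor Grb10 (0.35, 0.19 and -0.092), the phosphatase Ptpn6 (-0.047, 0.15 and 0.25), the insulin receptor substrate Irs2 (0.21, -0.039 and 0.14) and the adaptor Shc1 (-0.15, -0.21 and -0.024). Grb10 lay below the floor in control and with butyrate. The feedback inhibitor Socs1, below it in all pools, had ratios of 0.068, 0.047 and -0.31. Socs3, above it in all pools, had ratios of -0.0056, 0.020 and 0.12.

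Of 16 genes for IGF ligands, receptors and binding proteins, 0 were 1.5-fold from control with acetate and propionate and 1 with butyrate, Igfbp6 (0.64), which no pool measured above the floor. The medians were 0.083, -0.036 and 0.047, and over the 9 genes at or above the floor -0.015, -0.043 and 0.051. Igfbp1, a binding protein that insulin represses in liver, stood at 11.68 in control, 12.10 with acetate, 11.83 with propionate and 11.96 with butyrate, and so was higher in every acid pool, by 1.2-fold or more with acetate and butyrate. Igfbp7 was higher by 0.31, 0.26 and 0.19. The receptor Igf2r had ratios of 0.25, -0.026 and -0.049, and Igfbp5 of 0.16, -0.062 and -0.027. Igfbp3, which carries IGF1 in the complex with the acid-labile subunit, had ratios of -0.051, -0.043 and 0.10.

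Regulators of the axis in hepatocytes included a second gene past 1.5-fold with propionate. Onecut1 (HNF6), a transcription factor that growth hormone is known to induce in liver, stood at 9.83 in control, 9.79 with acetate, 9.16 with propionate and 9.66 with butyrate. Its propionate ratio of -0.68 was the 1 of 16 ratios past 1.5-fold in this list, and there were 0 with acetate and 0 with butyrate. Propionate was also below acetate, by -0.63. The transcription factor Cebpa was lowest with propionate as well (-0.29, beside -0.11 and -0.16). The leptin receptor gene Lepr (0.37, 0.14 and 0.40) and the coactivator Ppargc1a (0.51, 0.13 and 0.22) were above control in all acid pools. The list's medians were -0.0044, -0.077 and -0.041, with 12 of 16 genes below control with propionate and with butyrate. Over all genes at or above the floor the medians were -0.011, -0.034 and -0.0036. With each acid, more of all those genes thus also lay below control than above it. With propionate and butyrate their medians were smaller in size than the list's, and the share of them below control is not given here.

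Male-biased genes, many of them held up by pulsatile growth hormone, were near control: 0 of 21 differed by 1.5-fold with any acid, and the medians were 0.019, -0.032 and 0.023. Ugt2b38 (0.32, 0.15 and 0.045), Susd4 (-0.28, -0.26 and -0.077), Nudt7 (0.0067, -0.23 and -0.24) and Mup21 (0.069, -0.10 and 0.18) had the largest ratios at or above the floor. Below it, Ihh was at 0.18, 0.22 and 0.17. Short probes may cross-hybridise within the Mup, Ugt2b and Cyp families, so the member is uncertain there.

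Female-biased genes held the largest ratios around the axis. Past 1.5-fold were 3 of 20 with acetate and 3 with propionate, all higher, and 1 with butyrate, lower, beside medians of 0.062, 0.10 and 0.035. Of the 11 genes at or above the floor the count was 1 in each comparison, Cyp2b9 with acetate and propionate and Atp6v0d2 with butyrate, and the medians were 0.033, 0.082 and -0.079, of the opposite sign with butyrate. Cyp2b9 was far above control with acetate (2.53) and propionate (2.82) and at -0.41 with butyrate. Its levels in control (5.45) and with butyrate (5.05) were below the floor. Its mean level reached the floor only through the acetate and propionate pools. Cux2, a female-specific transcription factor that growth hormone controls, stood at 5.91, 5.33, 5.76 and 5.91, a ratio of -0.58 with acetate that falls just short of 1.5-fold and rests on a level below the floor. Atp6v0d2 was below control by -0.27, -0.47 and -0.63, and Cyp3a44 had ratios of 0.52, 0.10 and -0.12, with levels below the floor in all pools but acetate. The others past 1.5-fold, Ntrk2 (1.11 and 0.90 with acetate and propionate), Prom1 (0.63 with acetate) and Slc22a26 (1.63 with propionate), had mean levels below the floor, as did 9 of the 20.

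Fatty acid elongases and desaturases gave the setting of Elovl3. Of 15, 1 was 1.5-fold higher with acetate and 1 lower with butyrate, in both cases Elovl7 (0.70 and -0.73; 0.14 with propionate), which was below the floor in all pools. Elovl6, which elongates palmitate, had ratios of 0.27, 0.039 and -0.097, the same order of acids as for Elovl3. That order was not particular to it. Elovl7, Scd1, Fads1 (0.081, 0.0037 and -0.025), Fads2 (0.057, 0.031 and -0.059) and Hacd2 (0.039, 0.029 and -0.079) had the same order. Hacd1 (0.27, 0.13 and 0.35), Fads3 (0.087, -0.23 and -0.15) and Fads6 (-0.088, -0.19 and -0.091) did not share it. Nor did Elovl1, Elovl2, Elovl5, Hacd3, Hsd17b12 and Tecr, so most of the list did not. The share of all genes with this order is not given here. Scd1, the main stearoyl-CoA desaturase of liver, had ratios of 0.028, 0.028 and 0.0049. Its place in that order rests on a log2 ratio of only -0.00049 in propionate against acetate. The list's medians were 0.056, 0.028 and -0.046.

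Clock genes were included because Elovl3 and Bcl6 are rhythmic in liver. Of 16 measured, 1 was 1.5-fold from control with acetate, Per3 (-0.62, beside -0.42 and -0.067 with propionate and butyrate), 0 with propionate and 0 with butyrate. Arntl was higher by 0.42, 0.26 and 0.11, Nfil3 had ratios of 0.38, 0.28 and 0.00011, and Rora of 0.063, -0.052 and -0.32. The medians were 0.039, -0.052 and -0.022. The part of clock phase in the Elovl3 and Bcl6 values was not tested.

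**Figure D4:**
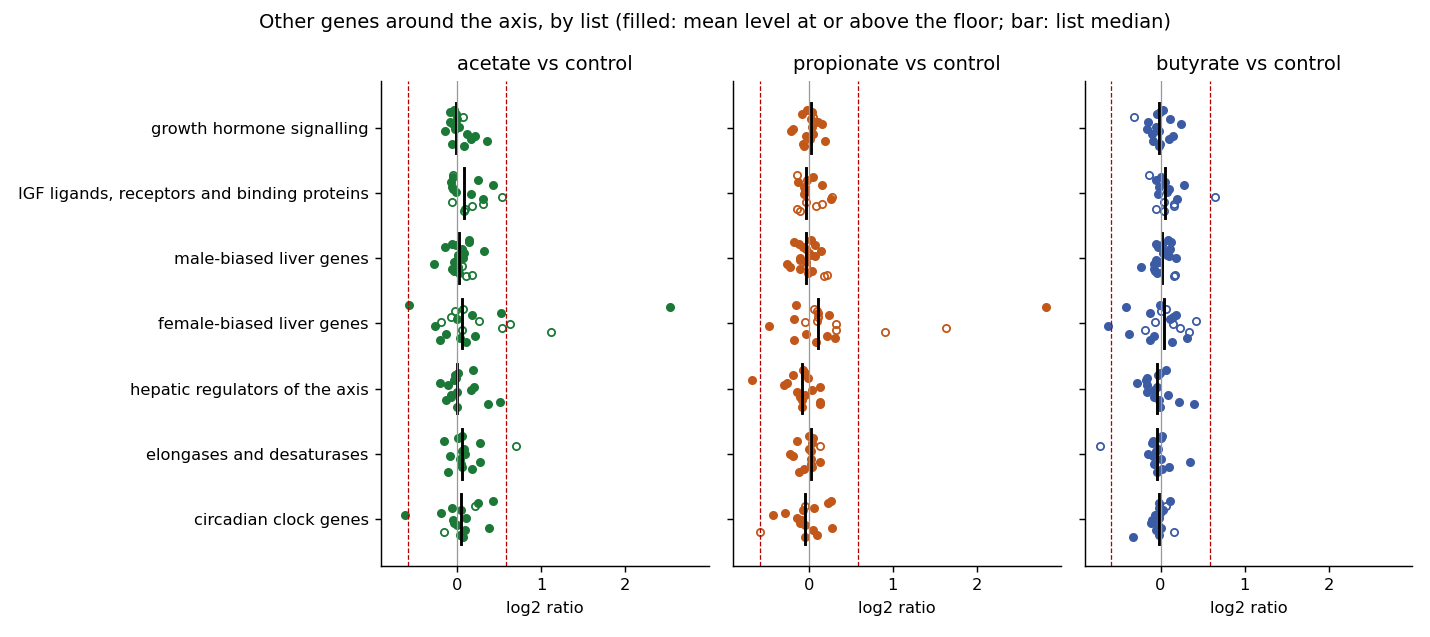
Log2 ratio to control (horizontal axis) of every measured gene of the 7 lists around the axis, with acetate, propionate and butyrate; filled points had a mean level at or above the floor, open points below it, black bars are list medians and dashed lines mark 1.5-fold. The medians all lie close to 0, and the points farthest out are female-biased genes, led by Cyp2b9 with acetate and propionate.

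Genes nearest to Bcl6 in pattern were found by the Euclidean distance over the 3 log2 ratios to control, among 9134 of the 9410 genes at or above the floor, leaving out the 8 axis genes and 268 genes with predicted, receptor-family, small RNA or accession-like names. They were Fscn1, an actin-bundling protein gene (distance 0.069; ratios 0.36, 0.75 and 0.15), Basp1 (0.18; 0.32, 0.90 and 0.14) and Ppp1r18 (0.21; 0.27, 0.52 and 0.18). Levels of Fscn1 were 5.69, 6.05, 6.44 and 5.84 in the control, acetate, propionate and butyrate pools, near the floor.

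Bcl6 is also expressed by immune cells, and markers of other cells differed between the pools. Kupffer cell markers were above control in 3 of 10 cases with acetate, 8 with propionate and 10 with butyrate, with medians of -0.17, 0.32 and 0.64 and mean levels of 8.54 in control and 8.46, 8.87 and 9.17 with the acids. They were thus higher with butyrate than with propionate, unlike Bcl6. As with Bcl6, all 10 were higher with propionate than with acetate. Dendritic cell markers, a list added after the values had been seen because of Fscn1, were above control in 10, 9 and 8 of 12 cases, with medians of 0.15, 0.14 and 0.090. Mean levels of that list were 4.80, 4.96, 4.98 and 4.87, and 9 of its 12 genes lay below the floor, Flt3, Xcr1 and Cd209a among them. Within it 4 genes were highest with propionate (Fscn1, Ccr7, Zbtb46 and Cd83), 5 with acetate and 3 with butyrate. The list holds Fscn1 itself; without it 9, 8 and 7 of 11 genes were above control, with medians of 0.15, 0.092 and 0.050. Of the 3 genes at or above the floor, Fscn1 and Ccr7 (0.15, 0.58 and 0.047) were highest with propionate and Clec9a (-0.13, 0.052 and 0.22) with butyrate. Lymphocyte markers, added in the same way, had medians of -0.049, 0.060 and 0.14, with 9 of 11 genes below the floor, Cd79a and Ms4a1 of B cells among them. The B cell gene Cd79b, at or above it but close to it in control, stood at 5.59, 5.83, 5.95 and 5.92. It was above control with all acids and highest with propionate (0.24, 0.35 and 0.33). Below the floor, Cd79a had ratios of -0.049, -0.084 and 0.076 and Ms4a1 of -0.18, 0.041 and -0.16. Cd22, also below it, had 0.068, 0.17 and 0.14, and Cxcr5 had -0.30, -0.42 and -0.42. Nkg7 was highest with butyrate (-0.31, 0.22 and 0.50). The part of these cells in the Bcl6 values was not tested.

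Stellate cell and fibroblast markers were above control in 9, 10 and 8 of 10 cases (medians 0.35, 0.26 and 0.094). Neutrophil markers had medians of -0.45, -0.22 and 0.69, with 5 of 8 genes below the floor. Those of sinusoidal endothelium had medians of 0.013, 0.0041 and 0.068. Markers of tissues outside the liver differed as well. Skeletal muscle markers had medians of -0.042, 0.20 and -2.12 and pancreatic acinar markers of -0.85, -0.63 and -0.33. Adipocyte markers had medians of 0.015, -0.18 and -0.27, with 4 of 7 genes below the floor. Pancreatic markers, like Cish and Socs2, were below control in all acid pools, but lowest with acetate, where Cish and Socs2 were nearest to control. Their part in the values of the axis genes was not tested.

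**Figure D5:**
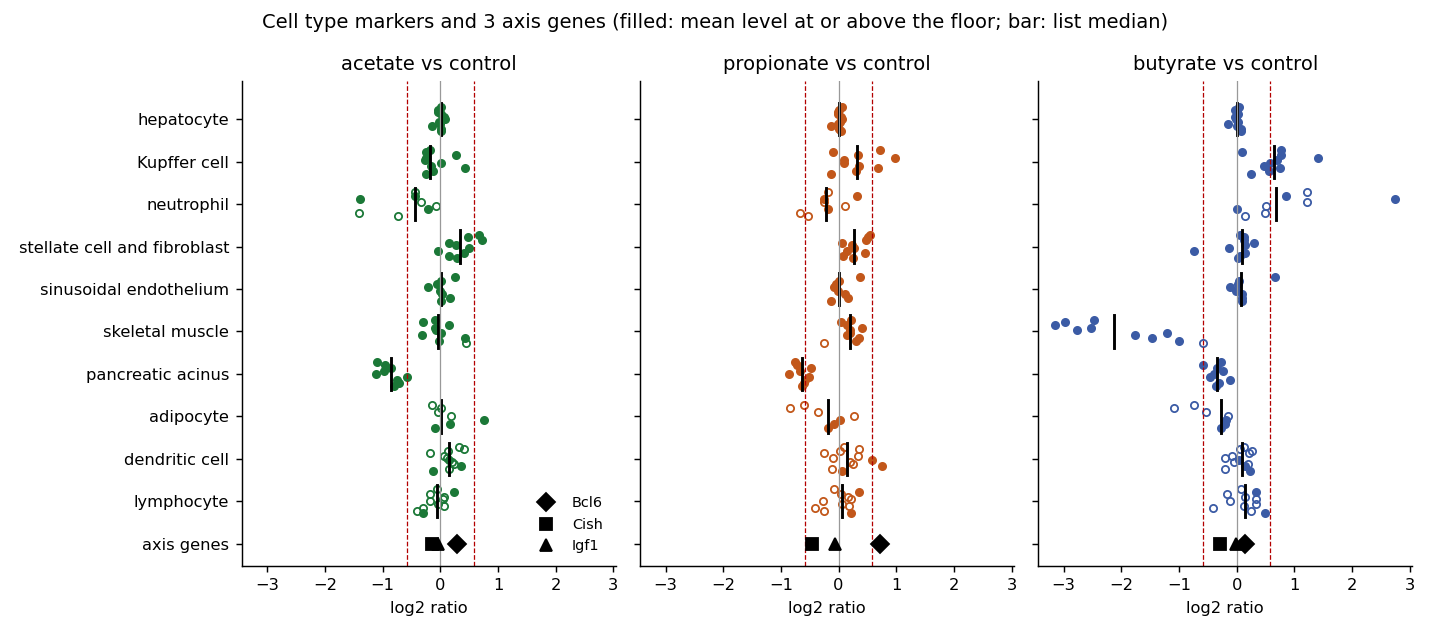
Log2 ratio to control (horizontal axis) of the markers of 10 cell types, with Bcl6 (diamond), Cish (square) and Igf1 (triangle) in the lowest row; filled points had a mean level at or above the floor, open points below it, black bars are medians and dashed lines mark 1.5-fold. Hepatocyte markers have medians of 0.0046, 0.017 and 0.0079, Kupffer cell markers are highest with butyrate (median 0.64), and Bcl6 is highest with propionate.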

How the data were processed

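Total RNA of mouse livers was pooled by group (500 ng per mouse) and hybridised to 4 biotin-labelled whole-transcript arrays, per the labels. The deposited table gives log2 values, 1 per probe set and array, and the submitters' processing notes name RMA, a method of background correction, normalization between arrays and probe summarization; the version, settings and build were not given in the sources used here. GEO's platform annotation supplied gene names: 21218 of 35556 had 1 symbol, 1881 several and 12457 none listed. Symbols were averaged over probe sets, and all 8 axis genes matched RefSeq by Entrez ID.

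Each comparison was a difference of log2 values of 2 arrays. Counts were taken at 1.5-fold and 1.2-fold. The number of arrays limits the precision. Named are all 8 genes and the 3 genes nearest to a member past 1.5-fold. So are the 4 genes at or above the floor with the largest ratio to control in each of 7 lists. Other list genes were named after their values were seen, among them those of the 7 lists past 1.5-fold from control. Members, lists and motifs were chosen with earlier results of these data known. Alternatives were cyclic loess (limma 3.58.1, R 4.3.3), median centring, the brightest probe set, the mean of the other 3 pools as reference, and other floors and folds. The functions were tested on simulated data with large set changes, which checks the code and not these results.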

Additional observations from a re-analysis of the deposited data

How the results depend on the processing

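With 1 array per pool, no replicate could be left out and no paired analysis was possible because each group has a single array and no test was made. Of 180 recomputed ratios of the 8 genes, 175 moved by less than 1.2-fold and kept their side of 1.5-fold; normalization or the choice of probe set moved a ratio by at most 0.072. The exceptions were all Bcl6: against the mean of the other 3 pools its ratios were 0.0061 with acetate, 0.58 with propionate and -0.20 with butyrate, and in butyrate against propionate it was -0.62 after cyclic loess and after median centring. In 8 cases a ratio changed sign, all of them from a size of 0.17 or less. Cish and Socs2 with acetate were among them. Against the mean of the other 3 pools, Cish went from -0.14 to 0.10 and Socs2 from -0.17 to 0.0090. Some of the 175 were fixed in advance, since taking the brightest probe set can change only Socs2. The other genes have a single probe set each. For Socs2 that choice repeats the brighter probe set taken alone. None of 84 recomputed list medians moved by 1.2-fold.

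The count of axis genes past 1.5-fold with propionate, 1, became 0 against the mean of the other 3 pools, 0 with a floor at the upper quartile, which Bcl6 does not reach, 0 at 2-fold and 3 at 1.2-fold. At 1.2-fold the counts of 0 became 1 with acetate, 1 with butyrate, 2 for propionate against acetate, 1 for butyrate against acetate and 2 for butyrate against propionate. At 1.5-fold, the count for butyrate against propionate was 1 after cyclic loess and 1 after median centring, in place of 0. Over all genes, leaving out the floor raised the count past 1.5-fold from 104 to 238 with propionate. Each Socs2 probe set alone, an alternative added after seeing the data, kept all 3 acids below control.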
